A study of Mus musculus with 6 samples.

Results

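The secreted and membrane-bound factors CXCL12, PTN, MDK, IGF2 and EFNB1 have been put forward as candidates for the activity by which PA6 stromal cells drive embryonic stem (ES) cells toward neurons. Their probes were taken by gene symbol and number 13 of the 45281 probes on the Illumina mouse array, for 5 of its 30854 gene names. RNA came from confluent monolayers of PA6, a mouse stromal cell line grown here without ES cells, after 3 h in serum-free medium. The medium held no added growth factor (-GFs), recombinant FGF2 at 20 ng/ml or recombinant BMP4 at 10 ng/ml (per the labels, the dose in the study's co-cultures being lower), with 2 arrays in each group and 6 in all. For each of the 2 biological replicates 1 well was left untreated, 1 received FGF2 and 1 received BMP4, so arrays of the same replicate number belong together. The cells are a single line in culture, and RNA was measured, not protein or its release.

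Stromal-derived inducing activity is the name given to the property of PA6 cells to turn ES cells grown on them into neurons, many of them dopaminergic, without added factors. CXCL12 is a chemokine that signals through CXCR4 and is also bound by CXCR7, while pleiotrophin (PTN) and midkine (MDK) are related heparin-binding cytokines that act through PTPRZ1, ALK, LRP1 and syndecans. IGF2 signals through the IGF1 receptor and the insulin receptor and is cleared by IGF2R, and EFNB1 is a membrane-bound ephrin ligand read by EphB receptors on neighbouring cells.

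No member changed past the threshold of a call in any comparison, while 4 of the 5 genes gave strong signals with and without growth factors. A gene was called when its log2 fold change exceeded 1 in size and limma gave an adjusted p under 0.1 across the 11872 genes tested. In FGF2 against -GFs 0 of the 5 members were called, where 3.53% of all genes were, and in FGF2 against BMP4 again 0, where 3.07% of all genes were. In BMP4 against -GFs 0 members were called, where 0.00842% of all genes were, a single gene. At an unadjusted p under 0.05, 0 of the 5 were found in each comparison, by limma and by the methods' t-test alike. The study's methods name limma for the arrays and state this unpaired t-test in a separate section. By limma 23.3% of all genes were under 0.05 in FGF2 against -GFs, 1.81% in BMP4 against -GFs and 21.3% in FGF2 against BMP4. By the methods' t-test these shares were 15%, 3.66% and 15.2%. CXCL12 was lower with FGF2 than in -GFs in both replicates, as were IGF2 and EFNB1, while MDK was higher in both and PTN went opposite ways. How many of all genes were lower in both replicates was not counted, and by group mean 47.5% of all genes were higher with FGF2. The CXCL12 difference passed the adjusted p, without reaching the fold threshold, when the replicate number entered the fit as a block. In that fit 37.7% of all genes passed the adjusted p.

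The treatments themselves were visible on the same arrays. By limma, the FGF2-responsive phosphatase gene DUSP6 rose by a log2 fold change of 3.55 (SE 0.25, adjusted p = 0.00305) and the early response gene EGR1 by 4.19 (SE 0.36, adjusted p = 0.00459) with FGF2. The BMP target ID1 rose by 2.77 (SE 0.16, adjusted p = 0.00945) with BMP4. Between 15509 and 16459 probes per array were detected, and all 9 stromal markers examined, among them PDGFRA, COL1A1 and VIM, were tested. Of 10 markers of other cells, 8 (those of blood, endothelium and neural cells, with EPCAM, listed as TACSTD1, and NANOG) were detected on none of the 6 arrays, while CDH1 and POU5F1 were detected on all 6 at intensities between 194.4 and 248.4.

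CXCL12 was represented by 5 probes, of which 3 were detected on all 6 arrays and 2 on none. The brightest, ILMN_2658908, stands for the gene. Its deposited intensity was 38062.9 and 23492.8 in the -GFs arrays of replicate 1 and 2, 22872.2 and 17476.2 with FGF2, and 31197 and 27598.4 with BMP4. Both FGF2 arrays lay below all others before normalization. In bulk RNA less of a transcript in each cell and fewer cells that hold it cannot be told apart. After cubic spline normalization the log2 intensity was 15.04 and 14.53 in -GFs, 14.54 and 14.18 with FGF2, and 15.14 and 14.61 with BMP4. On this scale the brighter FGF2 array just exceeded the dimmer -GFs array, so that these groups overlapped, while both FGF2 arrays remained below both BMP4 arrays.

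The order of the group means was thus BMP4, -GFs and FGF2, with BMP4 and -GFs differing by less than their spread. The log2 fold change of CXCL12 in FGF2 against -GFs was -0.42 (SE 0.26, 95% interval -1.04 to 0.20, limma adjusted p = 0.386), that is 0.747 times the level without growth factors. Within replicate 1 it was -0.50 and within replicate 2 it was -0.34. With the replicate number as a block the interval narrowed to -0.71 to -0.13 and the adjusted p was 0.0283, in a fit in which 37.7% of all genes had an adjusted p under 0.1, so that a value of this kind was common in the blocked fit. In FGF2 against BMP4 the log2 fold change was -0.52 (SE 0.26, limma adjusted p = 0.313), and with the block the adjusted p was 0.00976, where 34.2% of all genes passed. Without FGF2 replicate 1 the blocked adjusted p of FGF2 against -GFs was 0.17, without -GFs replicate 1 it was 0.159 and without -GFs replicate 2 it was 0.115, and without BMP4 replicate 1 that of FGF2 against BMP4 was 0.13.

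The other bright CXCL12 probes had the same sign with FGF2. ILMN_2737302 read 24524.6 and 17879 in -GFs, 17461.9 and 14515.9 with FGF2 and 20222.2 and 21670.9 with BMP4, a log2 fold change of -0.24 in FGF2 against -GFs (SE 0.18, limma adjusted p = 0.479 and 0.212 with the block). ILMN_3158250 read 16379.1 and 16191.7 in -GFs, 11740.8 and 11324.5 with FGF2 and 14701.5 and 15110.4 with BMP4, a log2 fold change of -0.36 (SE 0.16, limma adjusted p = 0.255 and 0.0786 with the block, where 36.6% of all probes tested were under 0.1). Only for ILMN_3158250 did the normalized FGF2 arrays lie below both -GFs arrays, an ordering found in 28.6% of the 16111 probes tested. All 3 probes had both FGF2 arrays below both BMP4 arrays, where 27.8% of the probes tested did, and in that comparison their blocked adjusted p ranged from 0.0106 to 0.0985, under 0.1 as for 32.3% of the probes. The probes measure RNA of 1 gene in the same extracts and are not independent. ILMN_2746295 and ILMN_3078973 read between 122.8 and 173.3 and were not detected on any array.

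**Figure D1:**
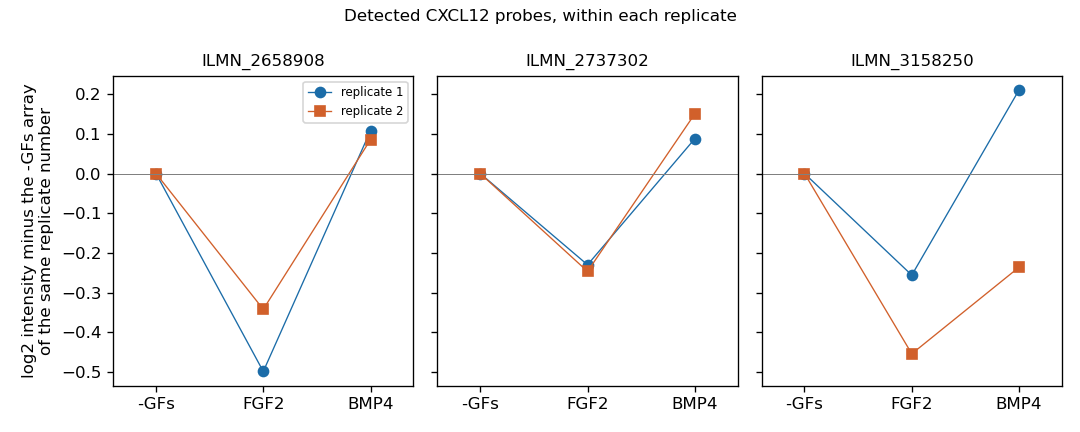
Normalized log2 intensity of the 3 detected CXCL12 probes in each group, as the difference from the -GFs array of the same replicate number (y axis, log2 units), with 1 line per biological replicate. Each FGF2 point lies below 0, between -0.50 and -0.23, while the BMP4 points lie between -0.24 and 0.21.

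The sequence before the gene start of Cxcl12 is shown because it is the member with the clearest difference with FGF2. That of Ptn is shown because, of the members, its arrays split most by replicate, though those of CXCL12, EFNB1 and IGF2 split too. Both were taken from RefSeq (GRCm38.p6), as the 250 bases before the annotated start in the direction of the gene, and capitals mark GC boxes (GGGCGG on either strand). Cxcl12 lies at chr6:117168285-117168534 on the plus strand and Ptn at chr6:36810180-36810429 on the minus strand.
Cxcl12: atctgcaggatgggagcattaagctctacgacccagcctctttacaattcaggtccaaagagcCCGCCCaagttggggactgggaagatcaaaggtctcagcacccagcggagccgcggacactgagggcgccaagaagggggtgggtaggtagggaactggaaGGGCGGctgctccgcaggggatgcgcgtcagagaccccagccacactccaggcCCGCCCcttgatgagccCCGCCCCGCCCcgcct
Ptn: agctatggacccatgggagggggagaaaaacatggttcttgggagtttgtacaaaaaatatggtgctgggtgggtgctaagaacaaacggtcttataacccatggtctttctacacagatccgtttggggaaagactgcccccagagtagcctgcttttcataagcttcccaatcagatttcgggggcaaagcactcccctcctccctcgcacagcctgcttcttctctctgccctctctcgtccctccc

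The Cxcl12 stretch held 5 GC boxes, the last 2 sharing a base, and was 64.4% G and C, whereas the Ptn stretch held 0 and was 52% G and C. At least 1 GC box was found in 32.7% of 32851 promoter stretches of this length, and 5 or more, a count set after the Cxcl12 sequence had been read, in 1.93%. Of the other members, 2 of the 4 Igf2 starts held GC boxes and the Efnb1 start held 0. Matches to GCGNGGGCG (EGR), TGANTCA (AP-1) and TATAAA, searched on both strands, were in none of the 7 stretches of these 4 genes, against 4.7%, 6.75% and 12.4% of all. The EGR and GC box letters share GGGCG. Of the 5 members 4 matched a RefSeq promoter, and Mdk did not.

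PTN, the heparin-binding cytokine pleiotrophin, did not differ between the groups beyond the spread of its replicates. Its probe ILMN_2638114 read 39885.4 and 17953.6 in -GFs, 27434 and 20401.1 with FGF2, and 28295.2 and 21626 with BMP4. In every group the array of replicate 1 was the brighter, and the groups overlapped. The log2 fold change was 0.01 with FGF2 (SE 0.37, 95% interval -0.88 to 0.89, limma adjusted p = 0.994) and 0.03 with BMP4 (SE 0.37, limma adjusted p = 0.999). With the block the interval for FGF2 was -0.31 to 0.33, and the 2 replicates went opposite ways, by -0.28 and 0.29. The remaining PTN probe, ILMN_1248991, read between 121.5 and 134.6 and was not detected on any array.

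MDK, the relative of PTN, was near the detection limit in all groups. Its brightest probe, ILMN_3158499, read 155.5 and 198.1 in -GFs, 226.1 and 204.5 with FGF2 and 170.6 and 206 with BMP4, against array medians of 153.4 to 168.1 over all probes. It was detected (p under 0.05) on 1 of 2 -GFs arrays, 2 of 2 FGF2 arrays and 1 of 2 BMP4 arrays, and so entered the test only through the FGF2 group. The normalized FGF2 arrays lay above both -GFs arrays, by 0.002 log2 units in replicate 2, in an ordering, in either direction, shared by 53.8% of all genes. The log2 fold change of 0.30 (SE 0.19, 95% interval -0.16 to 0.75) had a limma adjusted p of 0.404, and of 0.155 with the block. The blocked value was 0.07 (adjusted p = 0.834) without -GFs replicate 1 and 0.08 (adjusted p = 0.795) without FGF2 replicate 1, but 0.52 (adjusted p = 0.0612) without -GFs replicate 2 and 0.53 (adjusted p = 0.0269) without FGF2 replicate 2. The other 3 MDK probes read between 109.6 and 173.6 and were detected on no array.

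**Figure D2:**
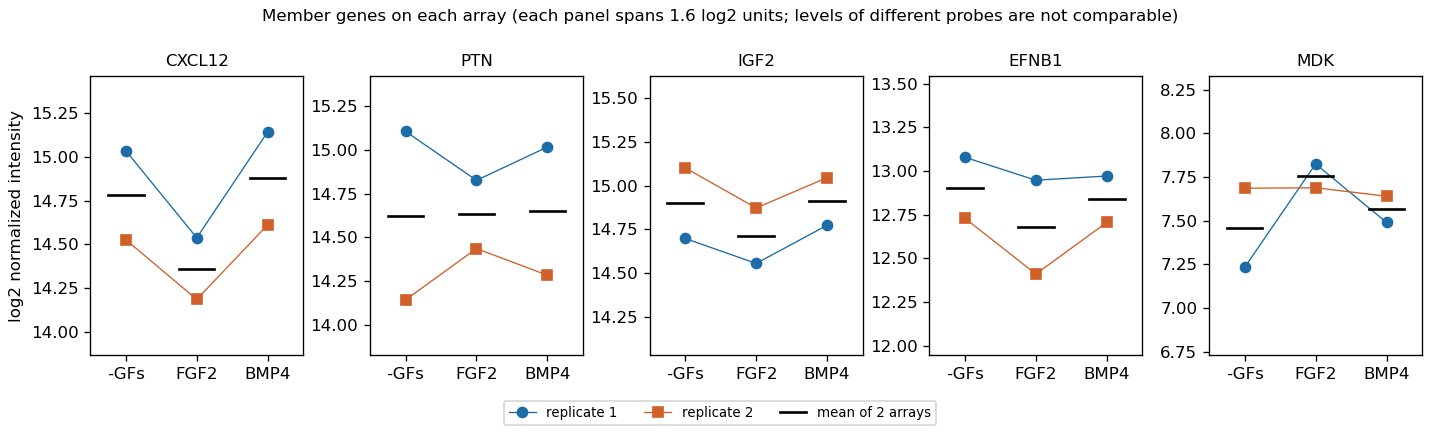
Normalized log2 intensity (y axis) of the probe that stands for each member in the -GFs, FGF2 and BMP4 arrays, with 1 point per array, lines joining arrays of the same replicate number and bars at the mean of 2 arrays. PTN and CXCL12 are higher in replicate 1 in every group, IGF2 is higher in replicate 2, and MDK is close to background.

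IGF2, a fetal growth factor, gave a strong signal in all groups. Its probe ILMN_2597769 read 30255.7 and 35574.2 in -GFs, 23126.9 and 28262.2 with FGF2, and 24162 and 37409.8 with BMP4. Each FGF2 array lay below the -GFs array of its own replicate, but the groups overlapped. The log2 fold change with FGF2 was -0.19 (SE 0.21, 95% interval -0.68 to 0.31, limma adjusted p = 0.649 and 0.333 with the block), and within replicates it was -0.14 and -0.23. With BMP4 it was 0.01 (SE 0.21, limma adjusted p = 0.999).

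EFNB1, the membrane-bound ligand of EphB receptors, read 9749.7 and 6676.5 in -GFs, 7666.9 and 5359.4 with FGF2, and 7092.1 and 7168.9 with BMP4 at its probe ILMN_2698443. As for IGF2, the FGF2 array lay below the -GFs array of its replicate while the groups overlapped. The log2 fold change with FGF2 was -0.23 (SE 0.23, 95% interval -0.78 to 0.33, limma adjusted p = 0.619 and 0.244 with the block), and with BMP4 it was -0.07 (SE 0.23, limma adjusted p = 0.999).

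BMP4 left all 5 members within 0.11 log2 units of -GFs, with 95% intervals reaching from -0.86 to 0.91 for PTN, the widest, and from -0.35 to 0.56 for MDK, the narrowest. With the block, in which 0.227% of all genes had an adjusted p under 0.1, the adjusted p of the members ranged from 0.933 to 0.993. In FGF2 against BMP4, the members other than CXCL12 had log2 fold changes between -0.20 and 0.19 and limma adjusted p from 0.633 to 0.986. The comparisons share arrays, as each group enters 2 of them. Without the block, the intervals of PTN, IGF2 and EFNB1 in FGF2 against -GFs include the value of CXCL12. With the block that of PTN does not, while those of IGF2 (-0.48 to 0.10) and EFNB1 (-0.52 to 0.07) do.

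**Figure D3:**
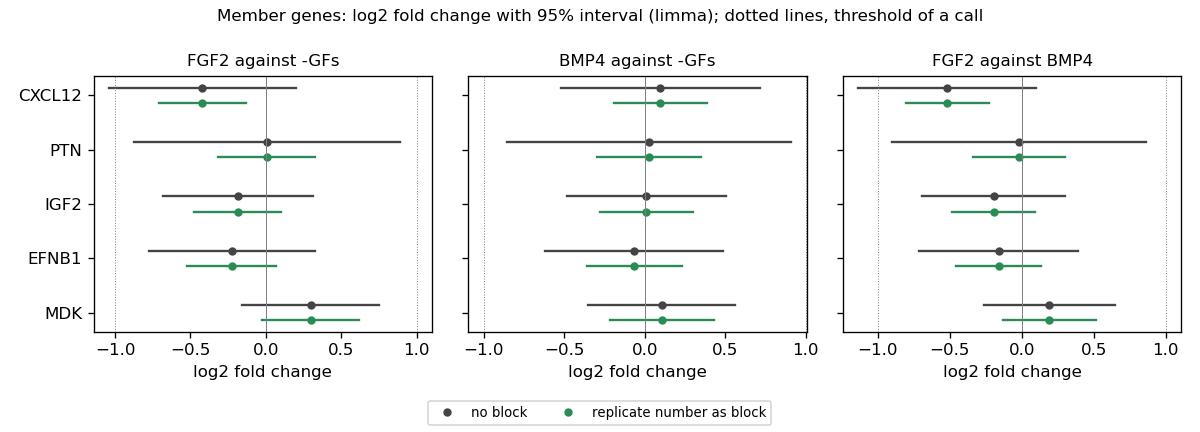
Log2 fold change (x axis) of the 5 members in the 3 comparisons with its 95% interval from limma, without (dark) and with (green) a block for the replicate number, and with dotted lines at the fold threshold of a call. The blocked interval of CXCL12 excludes 0 in both comparisons with FGF2, whereas all intervals without the block include 0.

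For 4 of the 5 members the same replicate was the higher in all 3 groups on the normalized scale. How many of all genes share such an ordering was not counted. Before normalization EFNB1 read 7092.1 and 7168.9 with BMP4, replicate 2 being the brighter. Replicate 1 exceeded replicate 2 for PTN by 0.97 log2 units in -GFs, 0.39 with FGF2 and 0.73 with BMP4, a mean of 0.70 that 4.3% of all genes surpassed in size. For CXCL12 the excess was 0.51, 0.35 and 0.53, and for EFNB1 it was 0.35, 0.54 and 0.27. IGF2 went the other way, replicate 1 being lower by 0.40, 0.32 and 0.27 log2 units in the order -GFs, FGF2 and BMP4, and MDK had no single direction. The mean differences of CXCL12, EFNB1, IGF2 and MDK were surpassed in size by 11.8%, 17.5%, 22.7% and 54% of all genes. The median size of the mean difference over all genes was 0.172. What differed between the replicate cultures was not tested.

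Over the 6 arrays the pattern of CXCL12 was most like that of NPR3, LIAS and EXOC2 (Pearson r 0.997 to 0.999), and that of PTN most like POLK, SPNB2 and B230387C07RIK (0.996 to 0.998). IGF2 was most like 9430029L20RIK, DGAT2 and GM1661 (0.996 to 0.997), EFNB1 most like BNIP3L, H3F3A and CLSPN (0.985 to 0.986), and MDK most like 4833429C11RIK, WDR13 and XPO6 (0.974 to 0.977). These values were the highest of 11872 genes over 6 arrays that share the difference between replicates, and are a description only.

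The partner genes were receptors and other partners of the members, with 16 other secreted factors counted among them. Of the 58 genes, all on the array, 33 were tested, 8 of these from the other secreted factors. With FGF2 3 rose past the call threshold and 0 fell, where 3.53% of all genes were called. With BMP4 0 were called, where 0.00842% of all genes were. At an unadjusted limma p under 0.05 there was 1 with BMP4, PAPPA, and the methods' t-test with the fold threshold also called 0. With the adjusted p alone 6 rose and 1 fell with FGF2, that is 21.2% of the 33 against 11.8% of all genes. Of the 6, 2 were other secreted factors. With the block 11 rose and 5 fell under the adjusted p, against 37.7% of all genes in either direction. The median log2 fold change of the 33 with FGF2 was -0.01, against -0.02 over all genes, and with BMP4 both medians rounded to 0.00. All 3 calls were lost when -GFs replicate 2, FGF2 replicate 1 or FGF2 replicate 2 was left out, in fits that take the lone array to vary like the other groups, with adjusted p between 0.105 and 0.219, and SDC1 also without -GFs replicate 1 (adjusted p = 0.114).

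None of the CXCL12 partners was tested. CXCR4, its signalling receptor, read between 125.7 and 168 and DPP4, a protease that cleaves CXCL12, between 128.1 and 164.4, both with no detection on any array. CXCR7 was detected on 1 -GFs and 1 BMP4 array at 224.6 and 233.1.

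Of 13 receptors of PTN and MDK, 8 were tested and 1 was called, rising with FGF2, where 3.53% of all genes were called. The heparan sulfate proteoglycan SDC1 read 986.5 and 802.9 in -GFs, 1899.8 and 1523.7 with FGF2 and 953.9 and 726.8 with BMP4, both FGF2 arrays being above all others. Normalized FGF2 and -GFs arrays did not overlap, in either direction, for 53.8% of all genes. SDC1 rose with FGF2 by a log2 fold change of 1.02 (SE 0.21, limma adjusted p = 0.0387), and its other tested probe, ILMN_2756943, by 0.77 (limma adjusted p = 0.0844). The other syndecans differed little, with log2 fold changes of -0.15 for SDC2, -0.16 for SDC3 and 0.07 for SDC4, and NRP1, a co-receptor, had -0.03 (limma adjusted p from 0.583 to 0.964). LRP1 had -0.13 (limma adjusted p = 0.782, with the block 0.532). NCL and ITGAV, named after their values were seen, had 0.66 and 0.34 (limma adjusted p = 0.403 and 0.241). With the block these were 0.00255 and 0.0721, where 37.7% of all genes were under 0.1. The NCL groups overlapped, and the other tested ITGAV probe, ILMN_1251946, gave 0.01. PTPRZ1 and ALK, the signalling receptors, were detected on no array.

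Of 18 genes of the IGF axis 12 were tested and 2 were called with FGF2, where 3.53% of all genes were. IGF2BP2, which binds IGF2 mRNA, read 2700.3 and 1965.6 in -GFs, 5293.1 and 4613.6 with FGF2 and 3036.5 and 2503.3 with BMP4, and rose with FGF2 by 1.18 on the log2 scale (SE 0.21, limma adjusted p = 0.0269). PAPPA, a protease that frees IGFs from IGFBP4, read 1235.5 and 956 in -GFs, 1969.6 and 2154.7 with FGF2 and 1489.5 and 1272.7 with BMP4, a rise just over the fold threshold (log2 fold change 1.0042, SE 0.18, limma adjusted p = 0.0284). For both genes the FGF2 arrays lay above all others. Normalized FGF2 and -GFs arrays did not overlap, in either direction, for 53.8% of all genes. IGF2BP1, named after its values were seen, rose by 0.74 (SE 0.16, limma adjusted p = 0.044, and up to 0.273 with 1 array left out), under the fold threshold, whereas IGF2BP3 had 0.21 (limma adjusted p = 0.67). IGFBP4, which holds IGFs in the medium, read 56583.5 to 70736.3 over the 6 arrays with a log2 fold change of 0.00 with FGF2 (limma adjusted p = 0.997). This probe is among the brightest on the arrays, whose highest signals were 65458.6 to 72645.1, and saturation was not tested. The other IGFBP4 probe, ILMN_2694955, gave -0.19 (limma adjusted p = 0.691). IGFBP7 had -0.10 and H19, the imprinted neighbour of IGF2, had -0.13 (limma adjusted p = 0.803 and 0.848). Of the receptors, IGF2R had -0.07 (limma adjusted p = 0.85) and INSR was not tested. IGF1R, named after its values were seen, had 0.76 (SE 0.26, limma adjusted p = 0.136), its FGF2 arrays being above all others. With the block its limma adjusted p was 0.000731, where 37.7% of all genes were under 0.1. The other tested IGF1R probe, ILMN_1239663, gave 0.26 (limma adjusted p = 0.541).

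Of 8 genes of the ephrin-B axis 5 were tested. With FGF2 0 were called, where 3.53% of all genes were, and with BMP4 0, where 0.00842% were. EPHB4 fell with FGF2 under the adjusted p alone. This EphB receptor read 3113.2 and 2867.5 in -GFs, 1564.6 and 1532.4 with FGF2 and 2361.9 and 2197.2 with BMP4, a log2 fold change of -0.86 with FGF2 (SE 0.16, limma adjusted p = 0.0322, and up to 0.213 with 1 array left out). Its 2 other tested probes gave -0.75 (limma adjusted p = 0.0902) and -0.20 (limma adjusted p = 0.465), so that the size depended on the probe. EPHB2 had -0.25, EPHB3 -0.51 and EPHA4 0.03 (limma adjusted p from 0.225 to 0.935, with the block 0.0271 for EPHB3). In the blocked fit 37.7% of all genes were under 0.1. EPHB3 read 184.1 to 327, was detected on 1 of 2 FGF2 arrays, and had -0.11 within replicate 1 and -0.91 within replicate 2. Other tested EPHB2 probes, ILMN_1220911 and ILMN_1240431, gave 0.02 and 0.15 (limma adjusted p = 0.941 and 0.759), so that its sign depended on the probe. EPHB6, named after its values were seen, read 156.7 to 221.6 and was detected on the -GFs arrays only. It thus entered the test only through the group where it was highest. Its value was -0.42 (limma adjusted p = 0.162, with the block 0.0334), from which no fall can be concluded. The ligand EFNB2 was detected on no array.

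Of 16 other secreted factors with a known part in neural induction or dopaminergic differentiation, 8 were tested. With FGF2 0 of these were called, where 3.53% of all genes were, and with BMP4 0, where 0.00842% were. FST, an antagonist of activin, read 1142.3 and 1167.5 in -GFs, 1729.8 and 2384.4 with FGF2 and 941.2 and 1246.5 with BMP4, and rose with FGF2 by 0.91 on the log2 scale under the adjusted p alone (SE 0.23, limma adjusted p = 0.0656, and up to 0.328 with 1 array left out). WNT5A rose likewise by 0.66 (SE 0.15, limma adjusted p = 0.0509, and up to 0.274 with 1 array left out), its FGF2 arrays at 1928.8 and 1899.8 being above the -GFs arrays at 1385.3 and 1192.3. Normalized FGF2 and -GFs arrays did not overlap, in either direction, for 53.8% of all genes. The WNT antagonist SFRP1 had -0.37 and the BMP antagonist CHRD -0.48 (limma adjusted p = 0.299 and 0.167, with the block 0.067 and 0.0143). The neurotrophic factors GDNF and BDNF, named after their values were seen, had 0.76 (SE 0.25) and 0.85 (SE 0.52) with limma adjusted p of 0.127 and 0.375. With the block these were 0.0015 and 0.00251, where 37.7% of all genes were under 0.1. GDNF read 139.4 to 282.9 and was detected on 1 -GFs, 2 FGF2 and 1 BMP4 arrays, so it entered the test only through the FGF2 group. BDNF read 956.5 and 262.5 in -GFs, and its groups overlapped. It had 0.63 with BMP4 and 0.22 in FGF2 against BMP4 (limma adjusted p with the block 0.322 and 0.43). SHH, WNT1, FGF8, FGF20, NTF3 and the BMP antagonist NOG were detected on no array.

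**Figure D4:**
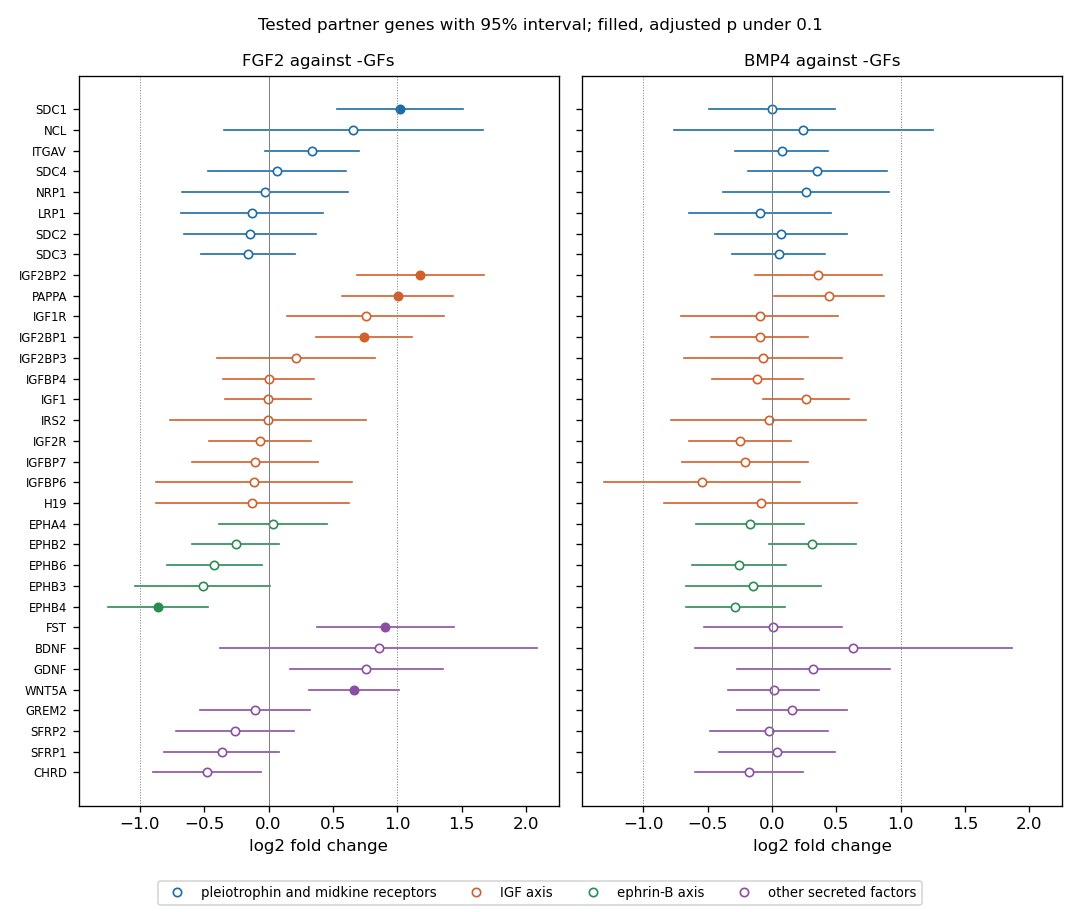
Log2 fold change (x axis) of the 33 tested partner genes, other secreted factors included, with FGF2 (left) and BMP4 (right) against -GFs. Lines are 95% intervals from limma, coloured by list, and points are filled where the adjusted p is under 0.1. With FGF2 7 genes are filled, SDC1, IGF2BP2, PAPPA, IGF2BP1, FST and WNT5A to the right and EPHB4 to the left of 0, and with BMP4 0 are.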

How the data were processed

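The authors hybridised biotin-labelled cRNA to Illumina arrays and deposited a table of non-normalized probe intensities with detection p-values, made in GenomeStudio 2011.01 per the submitters' processing notes. From it, 6 lines that hold no readable probe and 9 columns without a header were left out. As in the study's methods, values were cubic spline normalized, filtered at a detection p under 0.05, and reduced to the probe with the largest mean for each gene (11872 genes). The normalization was rebuilt in R 4.3.3 (452 quantiles), and the rule that both arrays of some group detect a probe (16111 kept) was chosen here. limma 3.58.1 fitted the 3 groups over 6 arrays with Benjamini-Hochberg adjustment. A check on simulated data used the fit without the block, independent noise on each array and planted changes well past the fold threshold of a call. It therefore does not bear on the blocked fit or on changes as small as those of the members. The number of arrays limits the precision. The replicate numbers pair arrays, since each biological replicate comprised 1 well per group, and deviations from group means correlated between same-numbered arrays (r 0.579 to 0.741). Alternatives were other normalizations, filters and probe rules, the block, each array left out, and the methods' t-test. The members, lists and named genes (called partners, the brightest others of each list and the most similar genes) were chosen with earlier results of these data known.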

Additional observations from a re-analysis of the deposited data

How the results depend on the processing

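No member was called with another normalization, detection filter or probe rule, with the replicate block, with the methods' t-test or with 1 array left out. With the replicate block the adjusted p of CXCL12 fell under 0.1 in both comparisons with FGF2 (log2 fold changes -0.42 and -0.52), and with no fold threshold it was the 1 member past it in each, where 37.7% and 34.2% of all genes passed. In fits chosen after seeing the data, the blocked CXCL12 value against -GFs was -0.41 with quantile normalization and -0.58 with median scaling, both past the adjusted p, but missed it with neqc (adjusted p = 0.12). Against BMP4 it was -0.54 with quantile normalization, -0.54 with neqc and -0.57 with median scaling. IGF2 with FGF2 passed in the blocked fit with median scaling (-0.36). Leaving out 1 array moved the blocked CXCL12 value between -0.50 and -0.34 against -GFs and between -0.59 and -0.43 against BMP4, that of PTN between -0.22 and 0.23 and between -0.25 and 0.21, and that of MDK against BMP4 between -0.028 and 0.42. Blocked MDK with FGF2 against -GFs had an adjusted p of 0.0612 once -GFs replicate 2 was left out (0.52) and of 0.0269 once FGF2 replicate 2 was (0.53), but of 0.834 without -GFs replicate 1 (0.07) and 0.795 without FGF2 replicate 1 (0.08).

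Small values changed sign. Under median scaling PTN became -0.18 with FGF2, with and without the block, and CXCL12 -0.013, PTN -0.10 and IGF2 -0.11 with BMP4, where IGF2 was also -0.0297 with quantile normalization and -0.030 with neqc. Without a block, leaving out 1 array gave ranges with FGF2 against -GFs of -0.67 to -0.17 for CXCL12, 0.068 to 0.53 for MDK, -0.47 to 0.49 for PTN, -0.39 to 0.016 for IGF2 and -0.49 to 0.044 for EFNB1. With BMP4 the ranges were -0.17 to 0.36 for CXCL12, -0.45 to 0.51 for PTN, -0.12 to 0.33 for MDK, -0.19 to 0.21 for IGF2 and -0.24 to 0.11 for EFNB1. In FGF2 against BMP4 they were -0.78 to -0.25 for CXCL12, -0.38 to 0.35 for PTN and -0.43 to 0.11 for EFNB1. Of 252 recomputed member values 221 kept their sign and their side of the adjusted p. The 3 partner genes called with FGF2 became 1 with median scaling, 0 with the methods' t-test after adjustment, 0 to 3 with 1 array left out, 7 with no fold threshold and 16 with the block and no fold threshold. The cause of these changes was not tested. MDK could not be tested among probes detected on all 6 arrays, and its signal near background limits its values.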
